A study of Mus musculus with 27 samples.

Results

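Transcripts of CD8+ T cells sorted as PD1+KLRG1- from tumours of mice given Tri were compared with those of cells sorted as PD1-KLRG1- from tumours of mice given Iso. The labels place 9 of the 27 libraries of the series in this comparison, 5 Tri PD1+KLRG1- and 4 Iso PD1-KLRG1-, and all 9 were used. Both groups came from MC38 tumours, a mouse colon adenocarcinoma model, and were sorted from digested tumours as living CD45+, CD3+, CD8+ cells outside the KLRG1 gate. Iso stands for the isotype control. Tri stands for a combined immunotherapy, TCT in the series text, and the sources used here do not name its agents, nor the strain, the age of the mice or the time of treatment. The treatment and the PD-1 gate changed together, so that a difference between the groups belongs to both and cannot be assigned to either from these 9 libraries. PD1+ cells were sequenced under Tri alone. The 5 libraries of Tri PD1-KLRG1- cells differ by label from the Iso group in treatment and from the Tri PD1+ group in the gate. They were therefore set beside the results where they are named. Of these, Tri PD1-KLRG1- replicate 5 stood apart, with 10427 genes detected at a common depth of 11594027 counts against 12695 to 15096 in the other 4. Without it, 7 of the 46 gate-step calls and 2 of the 18 treatment-step calls among the named genes were lost. Where the step value of a single gene is quoted and its call was lost, that value is given. The closing counts of step calls come from the model with this library and include calls that were lost. The labels do not say that each library came from a separate mouse, so p-values measure a spread between libraries. In the main model this spread was estimated from all 27 libraries of 6 groups, and not from the 9 compared. They include Iso PD1-KLRG1+ replicate 3, which held 93198 counts in total.

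PD-1, the product of Pdcd1, restrains T cells, which display it when their antigen receptor has been engaged, and tumour-reactive CD8+ cells often carry it with other inhibitory receptors. KLRG1 marks late effector cells. A CD8+ cell that has not been activated, or that has returned to a memory or stem-like state, expresses the transcription factors Tcf7, Lef1 and Klf2 and the receptor S1pr1, which takes it out of tissue and back into blood. Activation replaces that program with granzymes and perforin, with receptors for inflamed tissue and with a glycolytic metabolism.

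Short promoter sequences from 3 gene families that recur below are given first, to show the control elements searched for in them. Genes induced by type I interferon can carry an interferon-stimulated response element (ISRE), here searched as its core, GAAA, any 2 bases and GAAA again. Genes induced by interferon-gamma can carry a gamma-activated site (GAS), searched as TTCNNNGAA. The third motif, the cyclic AMP response element TGACGTCA (CRE), was chosen after the granzyme promoters had been read. Each window holds the 200 bases upstream of the first RefSeq start in GRCm38.p6, read 5′ to 3′ on the gene's strand, with matches on either strand in capitals. The ISRE core is in capitals in Ifit1 (chr19:34640689-34640888, plus strand), Ifit3 (chr19:34583329-34583528, plus strand) and Isg15 (chr4:156200819-156201018, minus strand), whose transcripts were lower in the Tri PD1+ cells. Capitals mark a GAS followed by an ISRE core in Tgtp1 (chr11:48992247-48992446, minus strand) and Igtp (chr11:58199356-58199555, plus strand), also lower. In Gzmg (chr14:56159580-56159779, minus strand), which was higher, they mark the CRE.
Ifit1: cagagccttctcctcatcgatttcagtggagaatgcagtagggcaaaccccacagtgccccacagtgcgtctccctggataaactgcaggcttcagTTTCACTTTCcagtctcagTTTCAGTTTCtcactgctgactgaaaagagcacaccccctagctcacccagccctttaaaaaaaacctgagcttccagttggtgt
Ifit3: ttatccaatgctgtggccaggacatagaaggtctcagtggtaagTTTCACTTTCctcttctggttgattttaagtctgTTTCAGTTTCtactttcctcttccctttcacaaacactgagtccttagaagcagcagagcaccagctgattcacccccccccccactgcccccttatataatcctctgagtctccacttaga
Isg15: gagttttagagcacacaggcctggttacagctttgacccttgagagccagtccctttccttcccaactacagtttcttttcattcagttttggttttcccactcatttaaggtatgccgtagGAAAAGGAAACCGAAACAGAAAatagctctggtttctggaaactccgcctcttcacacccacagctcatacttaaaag
Tgtp1: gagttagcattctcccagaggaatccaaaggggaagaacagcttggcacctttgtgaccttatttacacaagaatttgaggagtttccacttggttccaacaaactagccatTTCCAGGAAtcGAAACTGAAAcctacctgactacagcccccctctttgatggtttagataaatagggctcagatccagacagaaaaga
Igtp: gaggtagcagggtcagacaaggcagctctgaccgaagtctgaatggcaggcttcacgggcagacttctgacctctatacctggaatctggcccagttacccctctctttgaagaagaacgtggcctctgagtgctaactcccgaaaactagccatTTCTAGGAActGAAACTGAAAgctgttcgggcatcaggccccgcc
Gzmg: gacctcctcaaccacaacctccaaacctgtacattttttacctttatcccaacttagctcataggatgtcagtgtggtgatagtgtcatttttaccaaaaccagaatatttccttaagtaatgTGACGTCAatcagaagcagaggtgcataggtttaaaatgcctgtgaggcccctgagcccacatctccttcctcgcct

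The ISRE core was present in 2.33% of all 27025 promoter windows of this length, in 7 of the 20 windows found for 28 type I interferon response genes, and in 10 of the 17 found for 24 interferon-gamma-inducible GTPase and MHC class I genes. The GAS was present in 5.58% of all windows, in 7 of those 17 and in 3 of the 20 of type I genes. Outside the interferon lists the share ran from 0% to 25% for each of these motifs. It was highest in 2 of 8 windows of costimulatory receptors in both cases. The CRE was present in 1.53% of all windows and in 3 of the 20 found for 22 cytotoxic granule genes, namely Gzmc, Gzmf and Gzmg. In the other gene lists the share with a CRE ran from 0% to 14.3%, the highest in 3 of 21 windows of oxidative phosphorylation genes. The windows of Gzmf and Gzmg were identical at 90.8% of 195 aligned bases. Those of Gzmd and Gzme, which were also higher but held no CRE, matched Gzmg at 91.8% of 184 and 92.4% of 185 bases. A match describes the letters in the window and not a bound site.

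Library totals ran from 12090152 to 21204098 counts in the Tri PD1+KLRG1- group and from 11602005 to 26284630 in the Iso group, within the range of the series (93198 to 26284630). Correlations of log2 CPM (a gene's counts scaled to the same total in every library) between replicates were 0.87 to 0.93 in the Tri group and 0.85 to 0.91 in the Iso group. The descriptions of 2 of the 5 Tri and 1 of the 4 Iso libraries (replicate 4) carry an RNA-number suffix, which was a term of the model. Mitochondrial transcripts took 0.751% ± 0.196 (SD, n = 5) of counts in Tri PD1+ and 2.45% ± 1.05 (n = 4) in Iso libraries, without overlap (exact permutation p = 0.00794, the smallest that 5 against 4 allow; Benjamini-Hochberg 0.0143 over 9 measures). Markers of other cells moved with the groups. Summed over 21 myeloid markers, Tri PD1+ libraries held 672 to 1341 CPM and Iso libraries 1852 to 5658 (exact permutation p = 0.00794, adjusted 0.0143), with the highest value in Iso replicate 4 and Mrc1 at 0 in all 5 Tri libraries. The macrophage marker Adgre1 was at 61.1 CPM in Iso replicate 4 and at 0.895 CPM or less in the other Iso libraries. Of 21 myeloid markers tested 1 fell and none rose, and 10 fell and 1 rose of 18 in the 9 libraries alone. B cell markers summed to 24.5 to 98.4 CPM in Tri PD1+ and 435 to 655 in Iso libraries, of which Ighm made 379 to 606 CPM, while Ms4a1, which encodes CD20, was at 0.0978 CPM or less in all 9. Of 5 B cell markers tested 1 fell and none rose, with 4 negative values, and 1 rose and 3 fell in the 9 libraries alone. Markers of CD4 and regulatory T cells summed to 592 to 922 CPM in Tri PD1+ and 195 to 354 in Iso libraries, of which Tnfrsf4, which activated CD8+ cells also express, made 95.0 to 327 CPM in Tri PD1+ libraries. Of 10 such markers tested 1 rose and none fell, with 8 positive values and a median of 1.37. In the 9 libraries alone 5 of 9 rose and none fell. Cd4 itself was at 1.96 CPM or less in the Tri libraries and at 0 in the Iso libraries. Of 12 tumour and stroma markers tested 2 fell, the matrix genes Fn1 and Fbln2, which were at 1.53 CPM or less in every Tri PD1+ library. In the 9 libraries alone 4 of 11 fell and none rose. Their sum did not pass, at 847 ± 207 against 1112 ± 277 CPM (exact permutation p = 0.167, adjusted 0.214). Of 9 NK and innate-like markers tested, edgeR called none in the model of all 27 libraries, and 1 rose and 4 fell in the 9 libraries alone. Their summed level was lower in Tri PD1+ libraries without overlap, at 593 ± 90.8 against 812 ± 37.6 CPM (exact permutation p = 0.00794, adjusted 0.0143). This sum includes Il7r, which is also in the stem-like and memory list below. The level of Il7r was itself lower in Tri PD1+ libraries. The part of NK-like cells in the results was not tested either. The part of other cells in the results below was not tested, and in bulk libraries fewer cells of a type and less RNA per cell cannot be told apart.

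**Figure D1:**
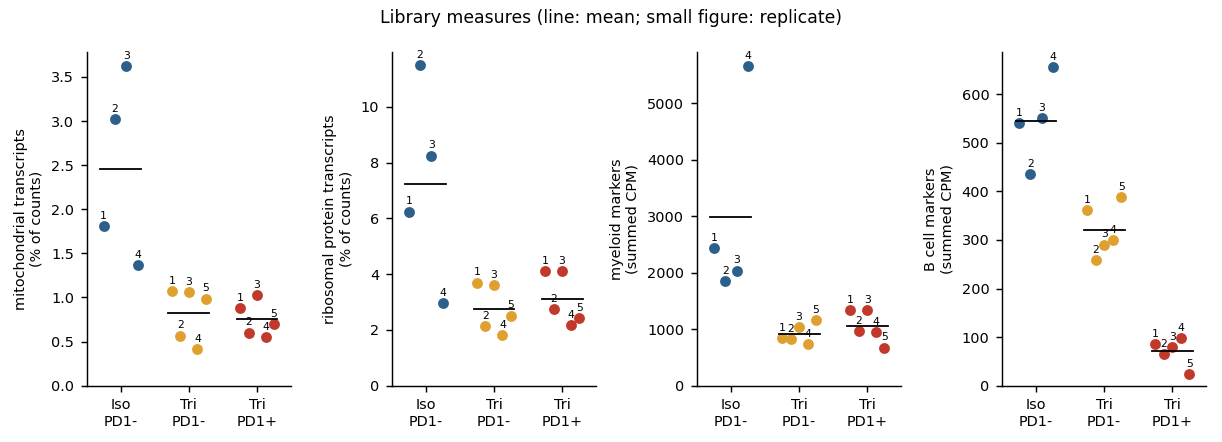
Mitochondrial and ribosomal protein transcripts (% of counts) and summed CPM of myeloid and B cell markers in each library of the 3 KLRG1- groups, with a line at the mean and the replicate number beside each point. Myeloid markers were at 5658 CPM in Iso replicate 4 and at 1852 to 2432 CPM in the other Iso libraries, above all 5 Tri PD1+ libraries.

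The label was checked against Pdcd1, Tnfrsf9 and Irf8. Pdcd1 (ENSMUSG00000026285) stood at 1280.3, 1118, 1058, 1096 and 1612 CPM in Tri PD1+ replicates 1 to 5 and at 78.2, 48.0, 32.5 and 70.4 CPM in Iso replicates 1 to 4. The sort chose this gene's product, so its difference (log2 fold change 4.44 ± 0.88, SE, adjusted p = 0.00438) describes the gate. Tnfrsf9 (ENSMUSG00000028965), the costimulatory receptor 4-1BB that appears after antigen-receptor signalling, stood at 1685, 1342, 1478, 1283 and 799 CPM against 199, 104, 136 and 221. Irf8 (ENSMUSG00000041515), a transcription factor of activated CD8+ cells, stood at 815, 625, 895, 648 and 597 CPM against 152, 103, 136 and 194. Every Tri PD1+ library lay above every Iso library for all 3 markers, as for 7.11% of all genes tested, with log2 fold changes of 3.0 ± 0.36 for Tnfrsf9 (adjusted p = 6.7e-06) and 2.29 ± 0.33 for Irf8 (adjusted p = 0.000123). The lineage genes were present in both groups (CPM are given with the SD of 5 Tri and 4 Iso libraries, log2 fold changes with the SE). Cd8b1 was at 1828 ± 420.1 CPM in Tri PD1+ and 1956 ± 317 in Iso libraries (adjusted p = 1). Cd8a was higher in Tri PD1+ cells, at 2145 ± 263 against 1210.0 ± 57.3 CPM (0.83 ± 0.12, adjusted p = 0.000144), as was Cd3e, at 1522 ± 280.0 against 912 ± 21.1 CPM. Klrg1 was at 7.96 CPM or less in all 9 libraries. Tri PD1-KLRG1- libraries held more, 8.61 to 40.0 CPM. Klrg1 in Tri PD1- differed from Iso cells by 3.33 ± 0.78 (adjusted p = 0.0359, and 0.0658 without Tri PD1- replicate 5). Ptprc, also a sort gene, was at 1551 ± 328 CPM in Tri PD1+, 2527 ± 273 in Tri PD1- and 1700 ± 416 in Iso libraries. Ptprc was lower in Tri PD1+ than in Tri PD1- cells (-0.72 ± 0.14, adjusted p = 0.00354). The part of Klrg1 in the comparisons with Tri PD1- cells was not tested.

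Over all genes, 319 of 14059 tested were called in edgeR's quasi-likelihood test on the 27 libraries at an adjusted p under 0.05 (2.27%), 116 of them higher in Tri PD1+ cells (0.825%) and 203 lower (1.44%). A fit to the 9 libraries alone called 904 higher (7.09% of 12747) and 794 lower (6.23%), and held 116 of the 116 higher and 200 of the 203 lower calls. Counts of both fits are given for the gene groups below, to be set against these shares of all genes. The gene groups share members, so the same gene can be counted in several of them. A count near its share says nothing particular to the group. The total fell to 163 without Iso replicate 2 and to 183 without Tri PD1+ replicate 2. A fit to all libraries of the series without the RNA-number suffix, where this comparison sets 3 against 3, gave 80 higher and 84 lower, and a fit to all those with it, 2 against 1, gave 1 and 0. Over all genes tested, log2 fold changes had a median of -0.03. Of the 91 genes named by rule, 88 were called, and for them the difference was divided into a treatment step (Tri PD1- against Iso PD1- cells) and a gate step (Tri PD1+ against Tri PD1- cells), which add up to it. The treatment step called 113 genes (0.804%) and the gate step 219 (1.56%).

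**Figure D2:**
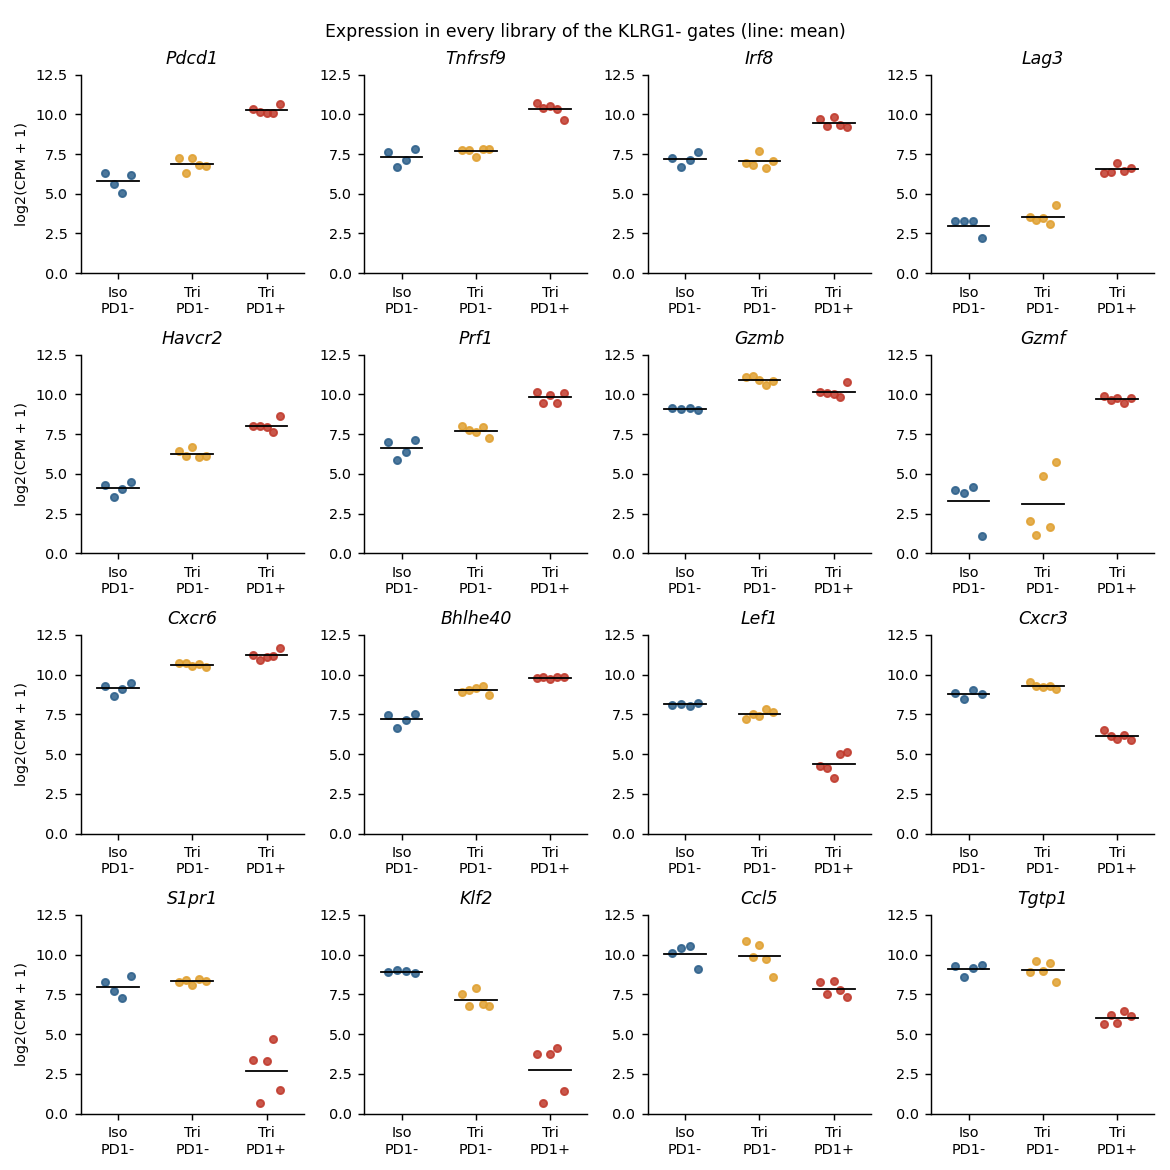
log2(CPM + 1) of 16 genes in each library of Iso PD1-KLRG1- (4, blue), Tri PD1-KLRG1- (5, yellow) and Tri PD1+KLRG1- (5, red), with a line at the group mean. Tri PD1- libraries lay near Iso for Tnfrsf9, Irf8, S1pr1, Ccl5 and Tgtp1, and nearer to Tri PD1+ for Bhlhe40 and Cxcr6.

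Several inhibitory receptors besides the sorted one were higher in the Tri PD1+ cells. Of 16 tested, Pdcd1 included, 6 rose and 1 fell, 5 had a negative value and the median was 2.29; 10 rose and 3 fell in the 9 libraries alone. Lag3 (ENSMUSG00000030124), which binds MHC class II, stood at 79.1, 81.1, 122, 85.1 and 97.6 CPM in Tri PD1+ libraries and at 8.69, 8.6, 8.58 and 3.59 in Iso libraries (3.74 ± 0.67, adjusted p = 0.00155). Havcr2, which encodes TIM-3 and was singled out after its values were seen, stood at 256, 258, 246, 197 and 391 CPM against 18.5, 10.9, 15.5 and 21.2 (4.06 ± 0.84, adjusted p = 0.00682). No libraries of the groups overlapped for either gene. Tigit, a receptor for nectin-like ligands, was at 118 ± 31.6 against 16.4 ± 8.34 CPM (2.94 ± 0.58, adjusted p = 0.00436). Klrc1, the NKG2A chain that recognises Qa-1, was at 917 ± 121 against 181 ± 44.7 CPM (2.32 ± 0.30, adjusted p = 2.37e-05). Ctla4 was called at 2.25 ± 0.52 (adjusted p = 0.0159), with the highest Iso value, 45.5 CPM, in replicate 1, and the call was lost in 4 of 9 fits that left out 1 library (0.0855 without Iso replicate 2). Entpd1, the ectoenzyme CD39, was at 149 ± 35.4 against 26.2 ± 11.5 CPM and was called in the 9 libraries alone (adjusted p = 0.00038, against 0.126 in the model of all 27).

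Tri PD1- cells held these receptors at different levels. Lag3 was at 11.2 ± 4.51 CPM in Tri PD1- cells, and the gate step was 3.03 ± 0.59 (adjusted p = 0.00366) against 0.71 ± 0.60 (adjusted p = 1) for the treatment step. Klrc1 was at 764 ± 185 CPM in Tri PD1- cells, where the treatment step was 2.07 ± 0.29 (adjusted p = 0.000253) and the gate step 0.25 ± 0.26 (adjusted p = 1). Tigit and Havcr2 lay between the groups in Tri PD1- cells, at 48.8 ± 8.14 and 77.9 ± 15.0 CPM, and neither of their steps was called. The steps share the Tri PD1- libraries, and the difference between the steps was not tested. Of 14 costimulatory receptors only Tnfrsf9 was called; 5 of 13 rose in the 9 libraries alone.

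Some transcription factors that follow antigen-receptor signalling or accompany exhaustion were higher. Of 22 tested, 5 rose and none fell, 5 had a negative value and the median was 1.32; 13 rose and none fell in the 9 libraries alone. Besides Irf8 these were Bhlhe40, Hif1a, Rbpj and Id2. Bhlhe40 (ENSMUSG00000030103), a repressor of activated and resident T cells, stood at 900.03, 937, 832, 909.7 and 913 CPM in Tri PD1+ libraries and at 175, 98.4, 141 and 180.1 in Iso libraries (2.60 ± 0.26, adjusted p = 5.89e-07). The Tri values lay within a narrow range far above Iso. Hif1a, the oxygen-regulated factor, was at 391.9 ± 99.4 against 96.5 ± 69.0 CPM (2.04 ± 0.41, adjusted p = 0.00481), and Rbpj, the nuclear effector of Notch, at 354 ± 83.5 against 102 ± 22.5 (1.70 ± 0.38, adjusted p = 0.0104). Rbpj in Tri PD1- cells was at 96.1 ± 28.7 CPM, so that its gate step was 1.91 ± 0.35 (adjusted p = 0.0021) and its treatment step -0.21 ± 0.36. Id2, a regulator of effector differentiation, rose by 1.10 ± 0.25 (adjusted p = 0.0114; 0.0708 without Iso replicate 4), with 1.2 ± 0.25 in the treatment step (adjusted p = 0.012) and -0.10 ± 0.22 in the gate step. Tox, the factor of chronic stimulation, stood at 206, 193, 264, 228 and 219 CPM against 68.1, 46.4, 39.7 and 72.7. Its groups did not overlap, and it was called in the 9 libraries alone (adjusted p = 7.46e-05) and not in the model of all 27 (1.91 ± 0.83, adjusted p = 0.367).

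Genes of the stem-like and memory program were mostly lower. Of 24 genes tested, 10 fell and none rose, 23 had a negative value, and the median was -2.10; 19 fell in the 9 libraries alone, and 8 to 10 fell in the fits without 1 library. Lef1 (ENSMUSG00000027985), a partner of TCF-1, stood at 18.1, 16.3, 10.2, 31.0 and 34.0 CPM in Tri PD1+ libraries and at 272, 281, 263 and 300.2 in Iso libraries. Klf2 (ENSMUSG00000055148), which drives S1pr1, stood at 12.4, 0.616, 12.6, 16.4 and 1.72 CPM against 476, 522, 496 and 463. The highest Tri PD1+ library was far below the lowest Iso library for both genes, a separation that 6.89% of all genes tested had in this direction, with log2 fold changes of -3.80 ± 0.35 for Lef1 (adjusted p = 3.32e-07) and -5.72 ± 0.88 for Klf2 (adjusted p = 0.000259). S1pr1 (ENSMUSG00000045092), the receptor that draws cells out of tissue, stood at 9.26, 0.616, 8.76, 25.3 and 1.86 CPM against 314, 209.6, 152 and 401 (-4.96 ± 0.73, adjusted p = 0.000141). Ly6c2, a surface protein of memory CD8+ cells with close paralogs that may share reads, fell to 697 ± 233 from 3396 ± 878 CPM (-2.21 ± 0.25, adjusted p = 4.66e-06).

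Tcf7, which encodes TCF-1, stood at 44.9, 107, 40.4, 80.8 and 21.6 CPM in Tri PD1+ libraries and at 626, 709.9, 534 and 830.4 in Iso libraries. It did not pass in the model of all 27 libraries (-3.52 ± 1.16, adjusted p = 0.132) and passed in the 9 libraries alone (adjusted p = 0.000126), although its groups did not overlap. The interleukin-7 receptor Il7r was at 143 ± 24.5 against 270.4 ± 31.8 CPM and also passed in the 9 libraries alone (adjusted p = 0.00258, against 0.83). Tri PD1- cells held the members at different levels. Lef1 was at 182 ± 30.7 CPM there, between the groups, with -3.11 ± 0.33 in the gate step (adjusted p = 3.25e-06) and -0.69 ± 0.32 in the treatment step (adjusted p = 0.586). S1pr1 was at 321 ± 28.9 CPM, against 269 ± 111 in Iso cells, and Ly6c2 at 3583 ± 954 against 3396 ± 878. The median of the 24 genes was -1.11 in the gate step and -0.88 in the treatment step.

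**Figure D3:**
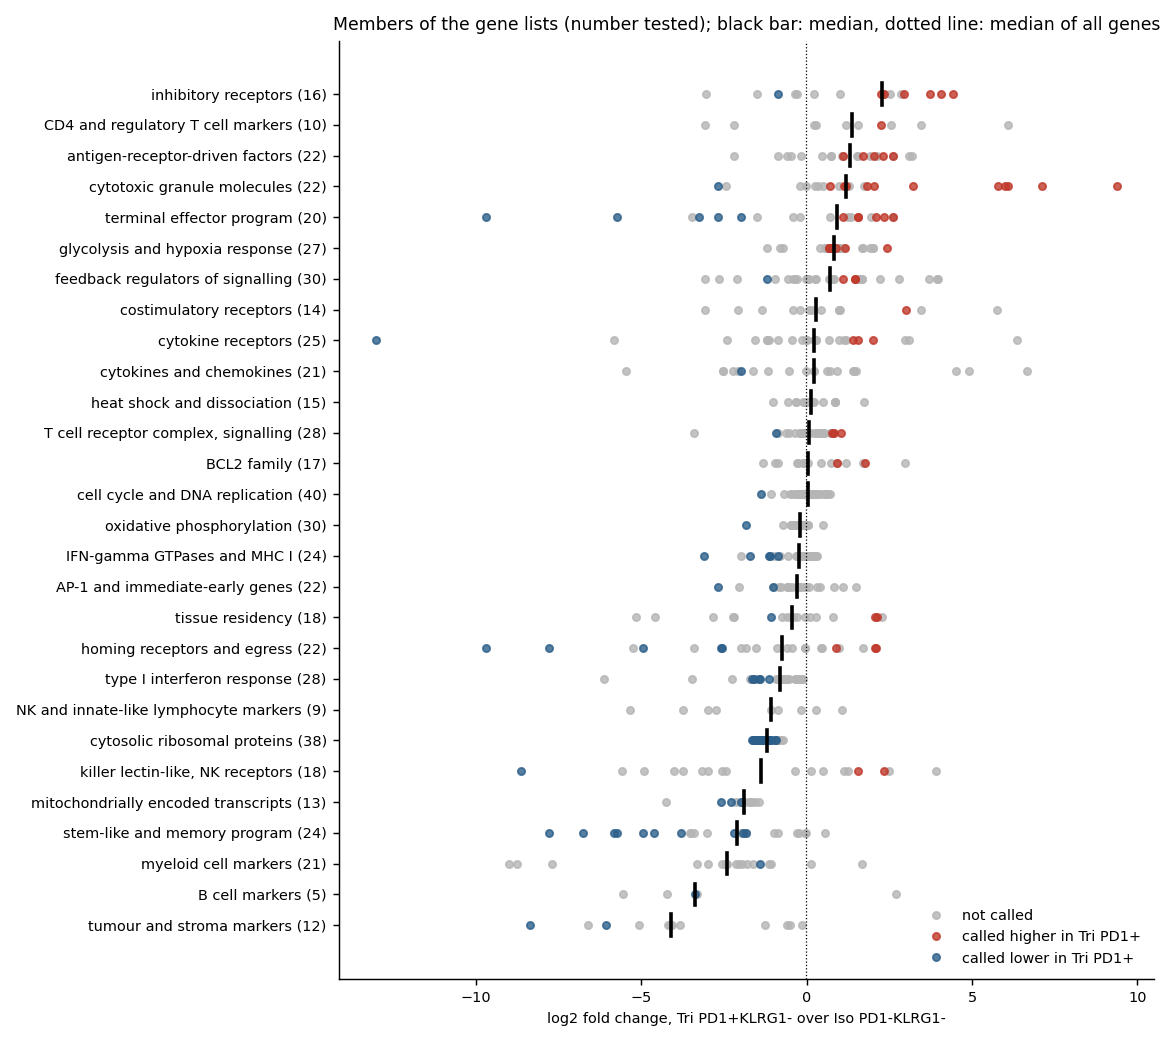
log2 fold change of every tested member of 28 gene lists, Tri PD1+KLRG1- over Iso PD1-KLRG1-, with called members in red (higher) or blue (lower), a black bar at the list median and a dotted line at the median of all genes (-0.03). Medians run from -4.10 for tumour and stroma markers to 2.29 for inhibitory receptors, and the stem-like program lies at -2.10.

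Cytotoxic granule genes were mostly higher. Of 22 tested, 11 rose and 1 fell, with a median of 1.2; 15 rose and 2 fell in the 9 libraries alone, and 8 to 11 rose in the fits without 1 library. Prf1 (ENSMUSG00000037202), the pore-forming perforin, stood at 1158, 705, 996, 711 and 1109.6 CPM in Tri PD1+ libraries and at 128, 58.5, 82.0 and 138 in Iso libraries (3.20 ± 0.30, adjusted p = 3.32e-07). Gzmb, the protease granzyme B, stood at 1147, 1091, 1051, 898 and 1742 CPM against 563, 546, 567 and 523 (1.12 ± 0.19, adjusted p = 0.000908). The groups did not overlap for either gene. Prf1 rose at the gate (2.12 ± 0.26, adjusted p = 2.09e-05), with 1.08 in the treatment step (adjusted p = 0.0589; 0.0452 without Tri PD1- replicate 5). Gzmb rose with treatment (1.84 ± 0.20, adjusted p = 3.32e-06) and was lower in Tri PD1+ than in Tri PD1- cells, which held 1959.7 ± 280.3 CPM (-0.72 ± 0.18, adjusted p = 0.0329; 0.0906 without Tri PD1- replicate 5). Serpinb9, which protects a killer cell from its own granzyme B, also rose in the treatment step (2.25 ± 0.23, adjusted p = 3.25e-06) and held 248 ± 41.4 CPM in Tri PD1+, 286 ± 45.8 in Tri PD1- and 59.3 ± 16.1 in Iso cells. Serpina3g, a cathepsin inhibitor, rose at the gate, to 955 ± 230.1 CPM from 331 ± 45.4 in Tri PD1- and 274 ± 84.2 in Iso cells (1.5 ± 0.24, adjusted p = 0.000332).

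The clustered granzymes C to G, which sit together with Gzmb in the genome, had the largest log2 fold changes of the list. Gzmd stood at 212, 221, 175, 199 and 203 CPM in Tri PD1+ libraries and at 0.511, 0.587, 0.0704 and 0 in Iso libraries (9.39 ± 1.8, adjusted p = 0.00411). Gzmg stood at 37.5, 48.0, 32.0, 30.3 and 28.2 CPM against 0, 1.08, 0 and 0 (7.12 ± 1.63, adjusted p = 0.0265; 0.0789 without Iso replicate 3, and the call was lost in 5 of 9 such fits). The Iso libraries together held 15 counts of Gzmd and 11 of Gzmg, so the fitted folds rest on very few counts. Named after their values were seen, Gzmf was at 845 ± 99.8 against 11.6 ± 7.19 CPM (6.01 ± 1.11, adjusted p = 0.00278) and Gzmc at 514 ± 115 against 8.51 ± 3.49 (5.78 ± 1.33, adjusted p = 0.0138; 0.0674 without Iso replicate 3). Gzme stood at 118, 83.5, 121, 161 and 122 CPM against 0, 2.93, 3.94 and 0 (6.08 ± 1.23, adjusted p = 0.00866). In Tri PD1- cells Gzmf was at 17.6 ± 23.1 and Gzmc at 8.19 ± 7.90 CPM, and Gzme had no count in any of the 5 libraries against 86 counts over the Iso libraries, a treatment step called lower (adjusted p = 0.0266; 0.0651 with the replicate number as a block). These genes are close copies, and the counting of reads that fit several of them is not given in the sources used here. Gzma was the member that fell, with 12.1, 21.4, 17.9, 6.44 and 0.138 CPM against 63.3, 82.7, 99.4 and 41 (-2.67 ± 0.72, adjusted p = 0.044), a call lost in all 9 fits that left out 1 library. It stood at 461 ± 124 CPM in Tri PD1- cells, above both other groups.

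Terminal effector genes moved in both directions. Of 20 genes tested, 6 rose and 5 fell, with a median of 0.90 (9 and 5 in the 9 libraries alone). Members such as Klf2, Id2, Gzma, Il18rap, Klrc1 and Klrk1 are counted in other lists as well. Klrk1, the activating receptor NKG2D, rose to 869.8 ± 114 from 287 ± 83.6 CPM (1.55 ± 0.18, adjusted p = 3.55e-06). Ccl5, a chemokine of effector and memory CD8+ cells, stood at 313, 180.0, 326, 223 and 160.0 CPM in Tri PD1+ libraries and at 1119, 1344, 1487 and 559 in Iso libraries (-1.98 ± 0.29, adjusted p = 0.000123). Every Tri PD1+ library was below every Iso library for Ccl5. Tri PD1- cells held 942 ± 100.2 CPM of Klrk1 and 1121 ± 599.9 of Ccl5, so the first moved in the treatment step (1.67 ± 0.18, adjusted p = 3.25e-06) and the second in the gate step (-2.10 ± 0.28, adjusted p = 3.19e-05). Cx3cr1, the fractalkine receptor, rose to 158 ± 16.7 from 39.6 ± 32.0 CPM (2.08 ± 0.45, adjusted p = 0.0092; 0.0567 without Iso replicate 2). Of 18 killer lectin-like and NK receptors tested, 2 rose, Klrk1 and Klrc1, and Klra1 fell (5 rose and 4 fell of 17 in the 9 libraries alone). Klra1, an inhibitory Ly49 receptor whose family shares sequence, had 7 counts in all Tri PD1+ libraries and 37.3 ± 8.95 CPM in Iso libraries (adjusted p = 0.047; lost in 8 of 9 fits that left out 1 library, 0.134 without Tri PD1+ replicate 2).

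Homing receptors changed in both directions. Of 22 tested, 3 rose and 5 fell, with a median of -0.75, and 7 rose and 10 fell in the 9 libraries alone. Cxcr6 (ENSMUSG00000048521), the receptor for CXCL16 that holds T cells in tumours, stood at 2393, 1943, 2234, 2289 and 3292 CPM in Tri PD1+ libraries and at 627, 402, 555 and 699 in Iso libraries (2.06 ± 0.20, adjusted p = 5.89e-07). Cxcr3, the receptor for interferon-induced chemokines, stood at 91.9, 69.0, 61.5, 73.0 and 57.2 CPM against 455, 346, 524 and 434 (-2.58 ± 0.38, adjusted p = 0.000155). Both separated the groups, in opposite directions. Cxcr6 had already risen in Tri PD1- cells, to 1589 ± 99.8 CPM (treatment step 1.46 ± 0.20, adjusted p = 0.000188). Cxcr3 was at 623 ± 67.0 CPM there (gate step -3.15 ± 0.38, adjusted p = 1.55e-05). Itgb7, the integrin chain of gut-homing and resident cells, fell likewise to 128 ± 21.8 from 754 ± 299 CPM (-2.56 ± 0.33, adjusted p = 2.85e-05), with 962 ± 47.6 in Tri PD1- cells. Among 18 residency genes 2 rose and 1 fell, with a median of -0.45 (4 and 5 in the 9 libraries alone). Litaf, an endosomal membrane protein, rose by 2.11 ± 0.28 (adjusted p = 3.21e-05). Cd69, which retains cells in tissue, fell by 1.09 on the log2 scale, to 124 ± 18.6 from 265 ± 48.0 CPM (adjusted p = 0.0188), a call lost in 5 of 9 fits without 1 library (0.113 without Iso replicate 4).

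Cytokine receptors also moved singly. Of 25 tested, 3 rose and 1 fell, with a median of 0.22 (7 and 6 of 24 in the 9 libraries alone). Il2rb, the beta chain for interleukins 2 and 15, stood at 2391, 2484, 2584, 2861 and 3166 CPM in Tri PD1+ libraries and at 1056, 726, 798 and 1484 in Iso libraries (1.39 ± 0.20, adjusted p = 0.000141), with 1145 ± 94.2 in Tri PD1- cells. The interleukin-10 receptor chain Il10ra rose to 396 ± 119 from 97.5 ± 35.4 CPM (1.99 ± 0.33, adjusted p = 0.000587), mostly in the treatment step (1.56 ± 0.32, adjusted p = 0.0134). Il18rap, the interleukin-18 co-receptor, rose by 1.55 ± 0.33 (adjusted p = 0.0082). Il6ra, the interleukin-6 receptor of resting T cells, had no count in any Tri PD1+ library and stood at 52.1, 81.1, 60.8 and 60.5 CPM in Iso libraries, at least 1674-fold lower with 3 counts in the whole group taken as the floor (adjusted p = 0.00827). Tri PD1- cells held 2.92 ± 2.73 CPM of Il6ra. Of 21 cytokines and chemokines tested, Ccl5 alone was called, and 4 rose and 5 fell of 20 in the 9 libraries alone. Ifng, the gene of interferon-gamma, was at 356 ± 69.2 against 135 ± 55.9 CPM without overlap (1.41 ± 0.43, adjusted p = 0.0889; 0.00334 in the 9 libraries alone).

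**Figure D4:**
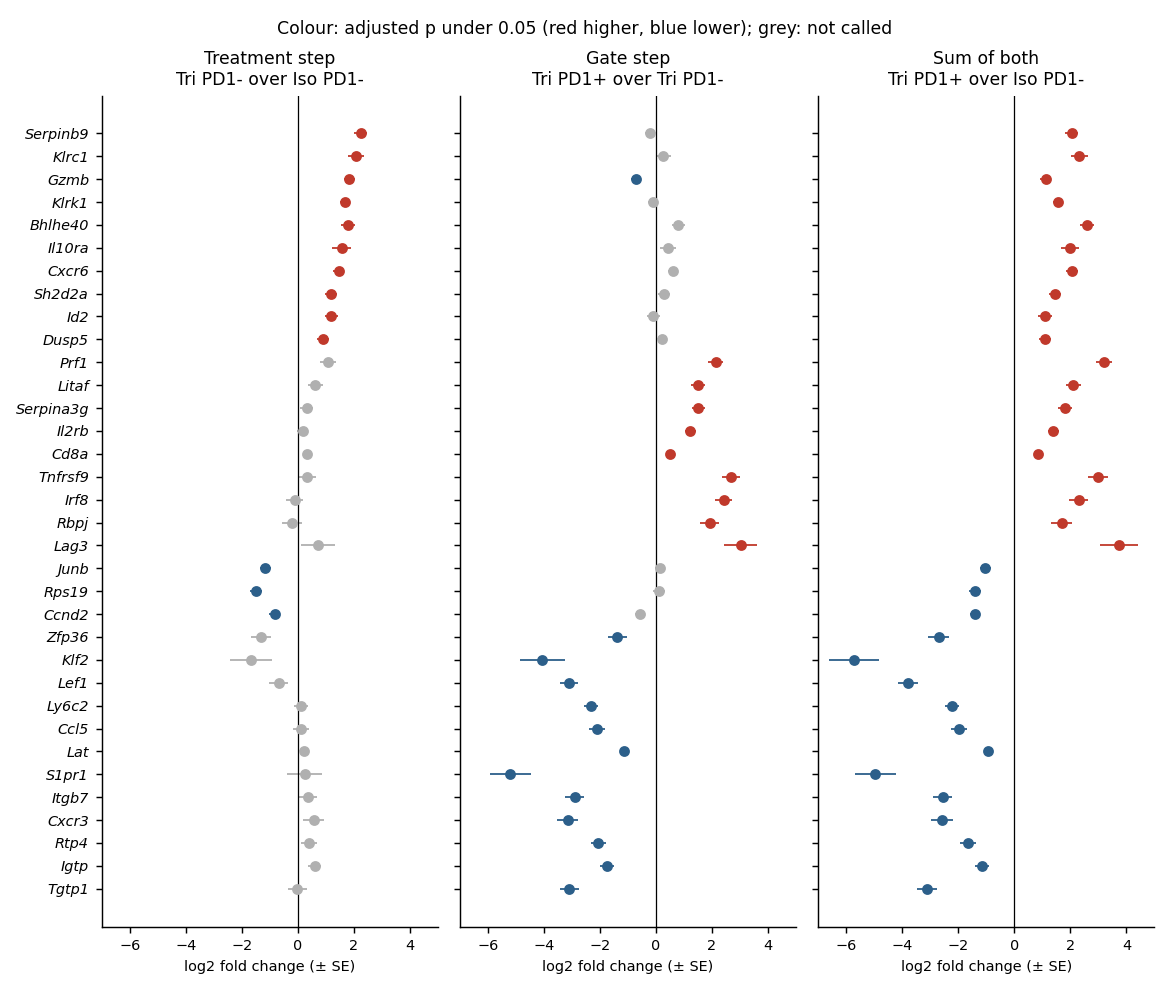
log2 fold changes with SE of 34 genes in the treatment step (Tri PD1- over Iso PD1-), the gate step (Tri PD1+ over Tri PD1-) and their sum (Tri PD1+ over Iso PD1-), coloured where the adjusted p was under 0.05. Serpinb9, Klrc1 and Klrk1 were called in the treatment step and not in the gate step, Tnfrsf9, Irf8 and Lag3 in the gate step and not in the treatment step, and Gzmb in both with opposite sign. Without Tri PD1- replicate 5 the gate calls of Gzmb and Zfp36 and the treatment call of Dusp5 were lost.

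The antigen-receptor complex and its feedback genes were higher in part. Of 28 complex and proximal signalling genes, 3 rose and 1 fell, with a median of 0.08 (6 and 3 in the 9 libraries alone). Cd3g rose to 2408 ± 433 from 1206 ± 128 CPM (1.04 ± 0.16, adjusted p = 0.000178). Lat, the adaptor that links the receptor to calcium and Ras signalling, stood at 322, 359.8, 304, 309 and 347 CPM in Tri PD1+ libraries and at 618, 688, 743 and 523 in Iso libraries (-0.93 ± 0.15, adjusted p = 0.000587). Tri PD1- cells held 723 ± 72.4 CPM of Lat, so it fell at the gate. Of 30 feedback regulators, 3 rose and 1 fell, with a median of 0.70 (15 and 5 in the 9 libraries alone). Sh2d2a, a T cell adaptor, rose by 1.46 ± 0.22 (adjusted p = 0.000175), Cblb, a ubiquitin ligase that restrains costimulation, by 1.45 ± 0.28 (adjusted p = 0.00288), and Dusp5, an ERK phosphatase, by 1.10 ± 0.22 (adjusted p = 0.00375). Each of these 3 had its larger step with treatment, called for Sh2d2a (1.17 ± 0.22, adjusted p = 0.00635) and Dusp5 (0.91 ± 0.21, adjusted p = 0.0359; 0.0569 without Tri PD1- replicate 5). Dgka, a kinase that removes diacylglycerol, fell by 1.19 on the log2 scale (adjusted p = 0.0137; lost in 3 of 9 fits without 1 library, 0.0871 without Iso replicate 4). Of 22 AP-1 and immediate-early genes, 2 fell and none rose, with a median of -0.29 (5 fell and 2 rose of 21 in the 9 libraries alone). Zfp36, which destabilises cytokine mRNA, fell to 35.2 ± 7.93 from 232 ± 14.4 CPM (-2.70 ± 0.37, adjusted p = 7.59e-05), and Junb to 494 ± 68.1 from 1016 ± 189 (-1.03 ± 0.19, adjusted p = 0.00214), the latter in the treatment step (-1.16 ± 0.19, adjusted p = 0.00218).

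Interferon response genes were lower in the Tri PD1+ cells. Of 28 type I interferon response genes, 5 fell and none rose, 28 had a negative value and the median was -0.80; 14 fell in the 9 libraries alone. Rtp4, a chaperone induced by interferon, stood at 66.1, 66.0, 66.3, 68.7 and 86.7 CPM in Tri PD1+ libraries and at 197, 248, 271 and 188 in Iso libraries (-1.65 ± 0.28, adjusted p = 0.000955). Ifit1, which binds foreign RNA caps and whose promoter is printed above, stood at 77.2, 65.0, 52.4, 76.5 and 199.9 CPM against 234, 154, 252 and 329.5 (-1.43 ± 0.35, adjusted p = 0.0214). Its groups overlapped through Tri PD1+ replicate 5, which was also the highest of its group for Rtp4 and Ifit3. Ifit3 stood at 113, 142, 140.3, 145 and 304 CPM against 439.8, 287, 461 and 543 (-1.40 ± 0.37, adjusted p = 0.0368), and Isg15, a ubiquitin-like modifier, at 50.1, 72.4, 52.4, 34.8 and 69.7 CPM against 128, 241, 217 and 132 (-1.58 ± 0.43, adjusted p = 0.0472). Only the call of Rtp4 was kept in all 9 fits without 1 library. The other 3 named were lost in 6 to 8 of them, with adjusted p-values up to 0.102 for Ifit1 and 0.125 for Ifit3 without Iso replicate 4 and 0.189 for Isg15 without Iso replicate 2, and the fifth, Bst2 (adjusted p = 0.0478), in 7. The fits without 1 library called 1 to 5 of the 28. The list had a median of 0.29 in the treatment step and -1.19 in the gate step.

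Several interferon-gamma-inducible GTPases fell. Of 24 tested, 5 fell and none rose, with a median of -0.22 (8 fell in the 9 libraries alone). Tgtp1 (ENSMUSG00000078922), a T cell GTPase of intracellular defence, stood at 48.5, 74.0, 52.1, 87.5 and 71.0 CPM in Tri PD1+ libraries and at 629, 385, 567 and 646 in Iso libraries (-3.11 ± 0.36, adjusted p = 4.92e-06). Igtp stood at 217, 226, 226, 232 and 284 CPM against 574, 395, 529 and 575 (-1.15 ± 0.24, adjusted p = 0.00724). Neither gene's groups overlapped, and both calls were kept in all 9 fits without 1 library. Tgtp2, a near copy of Tgtp1 that may share its reads, fell by 1.12 on the log2 scale (adjusted p = 0.00214) with overlapping groups. Gbp2, a guanylate-binding protein named after its values were seen, fell to 70.0 ± 15.0 from 232 ± 28.6 CPM (-1.71 ± 0.36, adjusted p = 0.00769). Psmb10, an immunoproteasome subunit, fell by 0.88 on the log2 scale (adjusted p = 0.00493), while B2m (-0.27), H2-K1 (-0.01), H2-D1 (0.22) and Tap1 (0.19), which make and load MHC class I, were not called. The GTPases fell at the gate, with Tgtp1 at 557 ± 189 CPM and Igtp at 796 ± 127 in Tri PD1- cells (gate steps -3.09 ± 0.35, adjusted p = 6.26e-06, and -1.75 ± 0.23, adjusted p = 4.07e-05).

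**Figure D5:**
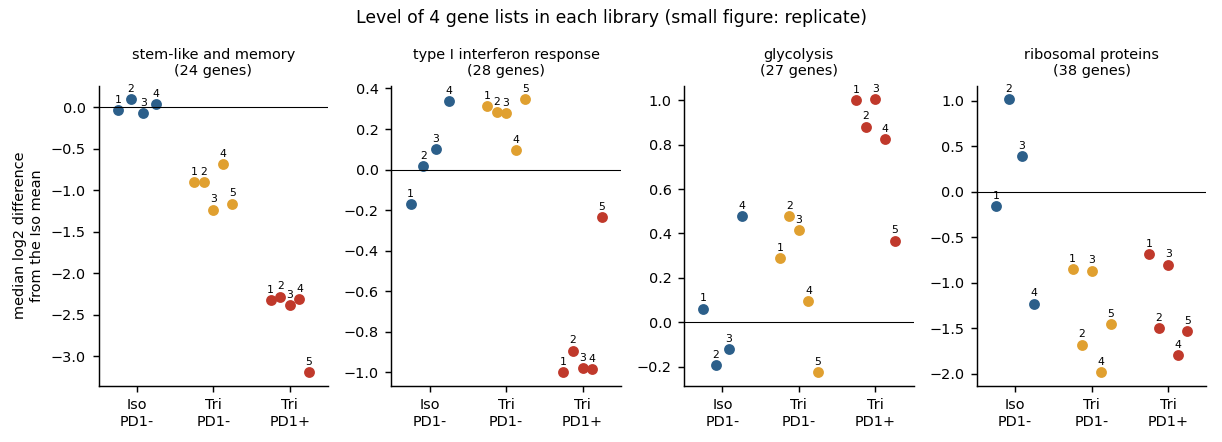
Median over the members of 4 gene lists of the difference in log2(CPM + 1) from the mean of the Iso libraries, for each library of Iso PD1-, Tri PD1- and Tri PD1+ cells, with the replicate number beside each point. The type I interferon list lies between -1.0 and -0.89 in Tri PD1+ replicates 1 to 4 and at -0.23 in replicate 5, and the ribosomal list lies at -1.23 in Iso replicate 4, within the range of the Tri PD1+ libraries.

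Glycolysis genes were mostly higher. Of 27 glycolysis and hypoxia genes, 6 rose and none fell, 24 had a positive value and the median was 0.83; 20 rose and 1 fell in the 9 libraries alone. Tpi1, triosephosphate isomerase, stood at 1074, 839, 1039, 729 and 576 CPM in Tri PD1+ libraries and at 415, 359, 433 and 354 in Iso libraries (1.15 ± 0.17, adjusted p = 0.000193). Pkm, pyruvate kinase, rose to 1874 ± 111 from 1007 ± 296 CPM (0.88 ± 0.17, adjusted p = 0.00411) and Aldoa, aldolase, to 1819 ± 447 from 1155 ± 88.1 (0.69 ± 0.13, adjusted p = 0.00365). The groups did not overlap for these enzymes. Eno1, enolase, rose by 0.66 ± 0.14 (adjusted p = 0.00965; 0.0512 without Iso replicate 2). Slc2a3, a glucose transporter named after its values were seen, was at 305 ± 68.3 against 53.7 ± 19.4 CPM (2.43 ± 0.53, adjusted p = 0.00999; 0.0599 without Iso replicate 2). The fits without 1 library called 3 to 8 of the 27. Nuclear-encoded oxidative phosphorylation subunits had a median of -0.21, and 1 of 30 was called (2 fell in the 9 libraries alone), Ndufa4, which fell to 76.6 ± 22.5 from 303 ± 130.5 CPM (-1.85 ± 0.26, adjusted p = 0.00011).

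Ribosomal protein genes fell in the largest number. Of 38 tested, 27 fell and none rose, 38 had a negative value, and the median was -1.2; 34 fell in the 9 libraries alone. Rps19 stood at 1058, 687, 901, 511 and 588 CPM in Tri PD1+ libraries and at 1936, 3355, 2443 and 964 in Iso libraries (-1.40 ± 0.23, adjusted p = 0.000558). The groups overlapped for all 38 genes, and the value of Iso replicate 4, whose description carries the suffix, lay among the Tri PD1+ values of Rps19. The count fell to 3 without Iso replicate 2 and to 11 without Tri PD1+ replicate 2, and was 18 in the libraries without the suffix. The list median was -1.33 in the treatment step and 0.12 in the gate step. Ribosomal protein transcripts took 3.11% ± 0.930 of counts in Tri PD1+ and 7.23% ± 3.58 in Iso libraries (exact permutation p = 0.0317, adjusted 0.0476). Mitochondrially encoded transcripts were lower in the same libraries, with 3 of 13 called (12 in the 9 libraries alone) and a median of -1.90. Their calls for mt-Nd2, mt-Nd6 and mt-Nd4 were lost in 4, 6 and 7 of 9 fits without 1 library, up to 0.0807, 0.118 and 0.2 without Iso replicate 2.

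Cell division genes were called at a share near that of all genes. Of 40 cell cycle and replication genes, 1 fell and none rose (2.27% of all genes were called), with a median of 0.03. In the 9 libraries alone 1 rose and 2 fell, against 7.09% and 6.23% of all genes. The one called in the model of all 27 was Ccnd2, cyclin D2 of the early G1 phase, at 353 ± 59.2 against 953 ± 127 CPM (-1.40 ± 0.18, adjusted p = 3.24e-05). Of 17 BCL2 family genes, 2 rose, the survival genes Bcl2a1d (1.76 ± 0.30, adjusted p = 0.000955) and Bcl2a1b (0.90 ± 0.19, adjusted p = 0.0084), which are near copies of each other. In the 9 libraries alone 4 rose and 1 fell of 16. Heat shock and dissociation genes had no call among 15 (1 fell in the 9 libraries alone), with a median of 0.12.

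The largest changes by rule were genes nearly absent from one side. Among the 12 largest rises, Serpinb9b, a serpin of the Serpinb9 family, stood at 312, 201, 142, 256 and 364 CPM in Tri PD1+ libraries and at 0, 0, 0 and 1.30 in Iso libraries (adjusted p = 0.00317). Slc17a6, a vesicular glutamate transporter of neurons, stood at 35.9, 26.7, 42.5, 67.1 and 135 CPM with no count in Iso libraries, at least 1408-fold higher (adjusted p = 0.0071). Fcrl6, a receptor for MHC class II on cytotoxic lymphocytes, was at 48.5 ± 13.9 CPM with no count in Iso libraries, at least 1112-fold higher (adjusted p = 0.0117). All 3 calls were kept in the 9 fits without 1 library, as were those of Ociad2 and Gzmd. Tri PD1- cells held 9.25 ± 9.04 CPM of Serpinb9b, 0.631 ± 1.38 of Slc17a6 and 2.39 ± 3.4 of Fcrl6. Dsc2 and Msc also had no count in Iso libraries, at least 997-fold and 771-fold higher, but their calls were lost in 9 and 5 of those fits (up to 0.127 without Iso replicate 4 and 0.0837 without Iso replicate 2). Sspo was at least 361-fold higher, with its call lost in 7 (0.0807 without Iso replicate 2). Gipc2, Exph5 and Ugt1a6a had 2, 1 and 2 counts over the Iso libraries and 45.5 ± 18, 21.5 ± 16.8 and 15.8 ± 12 CPM in Tri PD1+ cells, with calls lost in 9, 8 and 6 fits (up to 0.146, 0.129 and 0.118). Ugt1a6a shares exons with the other genes of its locus, so its reads may not be its own.

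Among the 12 largest falls, 6 besides Klra1 had calls lost in 6 to 8 of the 9 fits. The calls of Il6ra, Slc6a19 and G0s2 were kept in all 9. Slc6a19, a neutral amino acid transporter, stood at 37.6, 20.2, 31.3 and 21.5 CPM in Iso libraries with no count in Tri PD1+ cells, at least 728-fold lower (adjusted p = 0.0163). G0s2, an inhibitor of triglyceride lipase, was at 13.4 ± 3.42 CPM in Iso cells with no count in Tri PD1+ cells, at least 352-fold lower (adjusted p = 0.00263), and at 7.54 ± 3.28 in Tri PD1- cells. H2-Ob, a chain of the MHC class II chaperone of B cells, was at least 708-fold lower (adjusted p = 0.0188; lost in 4 fits, 0.057 without Tri PD1+ replicate 2). The others were Gpr15, Tmem108, Treml2, Rflnb, Klra13-ps and Cd163l1, with adjusted p-values up to 0.073, 0.136, 0.125, 0.0859, 0.0887 and 0.0883 when 1 library was left out. Fbln2, a matrix gene, stayed at 8 of 9 (0.0544 without Tri PD1+ replicate 2). Ighm, the immunoglobulin M heavy chain, stood at 53.8, 48.4, 52.1, 78.2 and 5.92 CPM against 492, 379, 491 and 606 (-3.37 ± 0.56, adjusted p = 0.000587) and was kept in all 9. Of the 5 B cell markers tested, 4 had a negative value. The B cell genes Pax5 and Ms4a1 were at 2.39 CPM or less in every library of both groups. The myeloid protease Ctss fell by 1.40 on the log2 scale (adjusted p = 0.0429), a call lost in all 9 fits (up to 0.139 without Tri PD1+ replicate 5).

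Of the 44 named genes called higher, 17 were called higher at the gate step (0.619% of all genes were) and 9 in the treatment step (0.263%), and 1, Gzmb, was called lower at the gate. Of the 44 called lower, 21 were called lower at the gate step (0.939%) and 6 in the treatment step (0.541%). The named genes were chosen on the sum of the steps, so these counts describe how the change was divided.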

How the data were processed

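RNA-seq was made from 27 libraries of CD8+ T cells of MC38 tumours. The deposited table holds counts, whole numbers per gene with no normalization, per its values; the sources used here name no aligner, counting tool, build or annotation, and DESeq2 1.26.0 is named without a role, per the submitters' processing notes. Columns were matched to samples by the labels' descriptions. Of 47729 gene IDs, 47224 received a symbol from the GENCODE M21 name table.

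Genes were kept by edgeR's filterByExpr by group at a minimum count of 10. A robust quasi-likelihood model with TMM scaling was fitted to all 27 libraries with edgeR 4.0.16 in R 4.3.3, with a mean for each of 6 groups and a term for the RNA-number suffix. P-values were adjusted by Benjamini-Hochberg over 14059 genes and called under 0.05. SE was taken as the size of the log2 fold change over the root of its F statistic, and CPM are TMM-scaled, with the SD between libraries. The gate step and the treatment step are contrasts of the same model and share libraries. Library measures were tested with 2-sided exact permutation tests, with genes detected counted after thinning to 11594027 counts. Folds against a group without counts use a floor of 3 counts over the group, and cover counting error only.

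The members and the 29 gene lists (579 genes, 2 of them not found) were chosen with earlier results of these data known. The rule named the sort genes and markers, the 12 largest changes per direction among called genes of at least 10 CPM whose libraries did not overlap, without antigen-receptor segments and unnamed models, and from each list the 4 called genes, or fewer, of lowest p, 91 genes in all; 15 further members were named after their values were seen. Some list members are not reported here. Alternatives were RLE scaling, other count filters (none, minimum 50), each suffix series alone and no suffix term, fewer libraries, genes detected as a covariate, a replicate block, DESeq2 1.42.0, limma-voom (limma 3.58.1) with sample weights, and leaving out each library. The procedure was tested on simulated data. Promoter sequences are from RefSeq, GRCm38.p6, whose build may differ from that of the counts. Figures were drawn with matplotlib 3.10.9.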

Additional observations from a re-analysis of the deposited data

Results flagged for a closer look

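In 23 of 230 groups of 4 or 5 values, the highest or lowest library stood far from the others of its group by Dixon's ratio of gap to range at its 95% critical value, where chance gives about 1 in 20. Tri PD1+KLRG1- replicate 5 was the highest of its group for Ifit1 (199.9 CPM), Ifit3 (304 CPM), Rtp4 (86.7 CPM), Igtp (284 CPM) and Il10ra (605 CPM), so 4 of its 5 values belong to interferon-induced genes. Iso PD1-KLRG1- replicate 4 held the highest summed myeloid markers (5658 CPM) and Ptprc (2316 CPM) and the lowest Lag3 (3.59 CPM) and Cd3g (1014 CPM) of its group, and Iso replicate 1 the highest Ctla4 (45.5 CPM). Gipc2 was lowest in Tri PD1+ replicate 2 (14.1 CPM) and Exph5 highest in replicate 4 (50.9 CPM).

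The remaining cases are low values in a single library of a group otherwise at or near 0. In Iso replicate 2 these were Gzmg (1.08 CPM), Gipc2 (0.196 CPM), Ociad2 (0.196 CPM) and Exph5 (0.0978 CPM), and in Iso replicate 4 Serpinb9b (1.30 CPM) and Ugt1a6a (0.0765 CPM). In Tri PD1+ replicate 3 they were Fn1 (1.47 CPM), Cd163l1 (0.490 CPM), Klra1 (0.429 CPM) and Treml2 (0.184 CPM), and in Tri PD1+ replicate 4 Fbln2 (1.53 CPM).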

How the results depend on the processing

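Of 319 calls in the main comparison (116 higher, 203 lower), the fits gave 499 without a count filter (213 higher), 164 in libraries without the suffix (84 lower), 1 in those with it (1 higher, 0 lower), 1698 in the groups compared alone (904 higher, 794 lower), 723 without the Iso PD1-KLRG1+ libraries (358 and 365), 583 without 3 libraries that stood apart in earlier results, replicate 5 of Tri PD1-KLRG1- and both replicates 3 and 4 of Iso PD1-KLRG1+ (282 higher), 678 with DESeq2 (332 and 346) and 2323 with limma-voom (1062 and 1261). Leaving out 1 library gave 163 to 287 in total, 79 to 106 higher and 84 to 189 lower. The same settings gave 390, 91, 7, 803, 538, 341, 522 and 2023 for the 219 calls of the gate step (129 to 177 without 1 library). For the 113 calls of the treatment step they gave 251, 60, 0, 134, 302, 217, 373 and 1104, with 68 without the suffix term, 42 with genes detected as a covariate and 28 to 154 without 1 library, the lowest without Iso replicate 2. The cause of these differences was not tested, except that fewer libraries entered some fits. With the replicate number as a block the main comparison had 284 calls, the gate step 188 and the treatment step 114; of the named genes called in the steps, 3 of 46 and 2 of 18 were lost. Correlations of same-numbered deviations were -0.01 to 0.05 between Tri PD1+ and Iso and -0.06 to 0.11 between Tri PD1+ and Tri PD1- libraries. In the latter, 3 of 5 Tri PD1+ libraries correlated best with their own number, so the data neither establish nor exclude a pairing. The descriptions number the gates of a Tri replicate in sequence, so a shared mouse is possible, but the labels do not state it.

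Of 106 genes named, only Klrg1 (-0.82 in libraries with the suffix) and Cd8b1, neither of them called, changed sign. Calls were less stable than signs. In libraries without the suffix 45 of the 106 lost a call and 2 gained one. With the replicate block 11 lost a call, and 13 to 27 did without 1 library. None lost a call with DESeq2 or in the groups compared alone. Cd8b1 was 0.0080 under RLE scaling, 0.0017 without a filter, 0.073 with the suffix, 0.0050 in the groups compared, 0.0080 with DESeq2, 0.038 with limma-voom, and -0.085 to 0.073 without 1 library (0.057 and 0.073 without Tri PD1+ replicates 2 and 4). Library measures in the 3 against 3 libraries without the suffix, where the smallest p is 0.10, differed (Tri minus Iso) by -1.98 percentage points (mitochondrial), -5.01 (ribosomal), -895 CPM (myeloid), -432 (B cell), 572 (CD4) and -204 (NK). Leaving out 1 library gave -2.07 to -1.31, -5.55 to -2.71, -2325 to -1056, -512 to -438, 512 to 595 and -243 to -191. These measures were not run in libraries with the suffix, which hold 1 Iso library. Depth limited the genes with no count or few counts in a group, whose folds are bounds or rest on few counts.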
